A study of Mus musculus with 18 samples.

Results

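Cd38 and the genes of NAD metabolism were followed in microglia RNA of mouse spinal cord, over 10 genes chosen by name from the 39017 in the count table. The genes were Cd38, Bst1, Nampt, Naprt, Nadk, Sarm1, Sirt1, Sirt2, Sirt3 and Parp1, and each had 1 row in the table. Every library came from female mice labelled wild type that carried Tmem119-Cre and RiboTag, so each healthy mouse carried the Cre and the tag too. RiboTag is an epitope tag on a ribosomal protein that appears after Cre acts, and Tmem119 is a gene of resident microglia. The labels name total RNA and describe no pull-down of tagged ribosomes. The 3 groups of 6 libraries were EAE mice given metformin (replicates 5, 6, 13, 14, 21 and 22), EAE mice with control treatment (1, 2, 9, 10, 17 and 18) and healthy mice with control treatment (3, 4, 11, 12, 19 and 20). EAE, experimental autoimmune encephalomyelitis, models the inflammatory demyelination of multiple sclerosis, and metformin is an antidiabetic drug. Neither an age, a dose nor a time is given in the sources used here. Whether each replicate is 1 animal is not stated, so a p-value covers no more than the spread among these samples, which may be technical.

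NAD is a coenzyme of redox reactions and also the substrate of enzymes that break it. CD38 and its relative BST1 (CD157) cleave NAD or make the calcium messenger cyclic ADP-ribose from it at the cell surface, SARM1 cleaves it inside the cell and is known for driving axon degeneration, and sirtuins and PARP1 use it to remove acyl groups from proteins or to attach ADP-ribose to them. These reactions release nicotinamide, which NAMPT returns to NAD by the salvage route, while NAPRT starts the route from nicotinic acid and NADK makes NADP from NAD. CD38 is known as an inducible enzyme of activated macrophages and lymphocytes, including plasma cells.

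Gene counts per library ran from 46.2 to 58.3 M (M, mega), and every one of the 10 genes passed the filter on low counts. Levels are given as CPM, counts scaled to 1 M of a library size adjusted by TMM factors, which ran from 0.90 to 1.18 in metformin EAE, from 0.80 to 0.96 in control EAE and from 1.08 to 1.20 in healthy libraries. One library stood apart from its group. Over the 10 genes, metformin EAE replicate 22 lay nearer to healthy libraries than to the other metformin EAE libraries. Its median absolute log2 difference was 0.387 from the mean of the other metformin EAE libraries and 0.207 from the healthy mean. Its level was nearer to the healthy median than to that of the other metformin EAE libraries for 8 of the 10 genes. Log2 changes in the metformin comparisons are therefore given with and without replicate 22, for the 10 genes and for named list genes that were called. Other metformin values are with all libraries unless stated.

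The choice of the 10 genes was made with results of these comparisons known, and no test is given for them. Their levels, log2 changes with standard errors and the overlap of the groups are a description. The 3 comparisons share libraries: control EAE stands in 2 of them, and so do the healthy and the metformin EAE libraries.

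Cd38, the NAD-cleaving surface enzyme (ENSMUSG00000029084, chromosome 5, 43868553 to 43912375 on the forward strand in GRCm38), was the gene of the 10 with the widest separation between metformin EAE and control EAE. Its lowest, median and highest levels were 2.54, 5.56 and 9.19 CPM in metformin EAE, 14.8, 22.6 and 94.3 CPM in control EAE, and 1.48, 2.03 and 2.84 CPM in healthy libraries. All 6 control EAE libraries lay above all metformin EAE and all healthy libraries. The metformin EAE group overlapped healthy, since replicates 22 (2.54 CPM) and 5 (2.69 CPM) lay below the highest healthy library. The log2 change was 4.19 ± 0.52 (SE here and below) in control EAE against healthy, an 18.3-fold higher level. It was -2.76 ± 0.48 in metformin EAE against control EAE, and -2.61 ± 0.50 without replicate 22. Against healthy, metformin EAE was at 1.44 ± 0.48, and at 1.59 ± 0.49 without replicate 22. Only 0.0418% of the 16740 genes tested had a lower value than Cd38 in metformin EAE against control EAE, and 98.7% had a lower value in control EAE against healthy. Without control EAE replicate 9, the highest library, the log2 changes were 3.67 in control EAE against healthy and -2.23 in metformin EAE against control EAE.

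The spread of Cd38 within control EAE was wide, 6.38-fold between its lowest and highest library. Replicates 9 and 10 had 94.3 and 55.0 CPM, and the other 4 had 14.8 to 28.3 CPM. The replicate numbers fall into 3 runs, 1 to 6, 9 to 14 and 17 to 22, each with 2 libraries of every group, and the labels do not say what the runs mark. Within the run 1 to 6, Cd38 had 2.69 and 3.72 CPM in metformin EAE, 15.3 and 16.8 CPM in control EAE, and 1.48 and 1.59 CPM in healthy libraries. Within the run 9 to 14 the values were 7.40 and 9.19 CPM in metformin EAE, 55.0 and 94.3 CPM in control EAE, and 1.86 and 2.20 CPM in healthy. Within the run 17 to 22 they were 2.54 and 7.78 CPM in metformin EAE, 14.8 and 28.3 CPM in control EAE, and 2.27 and 2.84 CPM in healthy. Control EAE was above metformin EAE in each run. This follows from the lack of overlap between the 2 groups over all libraries, and the runs add nothing to it.

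Control EAE replicates 9 and 10, which were highest in Cd38, were also highest in the T cell receptor component Cd3e, at 1.59 and 2.01 CPM against 0.080 to 0.363 CPM in the other control EAE libraries. The plasma cell gene Jchain was at 2.20 and 11.4 CPM in those 2 libraries and at 0.0908 to 3.21 CPM in the other 4. In metformin EAE replicate 6, Jchain was at 6.51 CPM while Cd38 was at 3.72 CPM. Between the groups, Cd3e had a median of 0.538 CPM in metformin EAE and 0.305 CPM in control EAE, with overlap, while Cd38 was lower in metformin EAE. Metformin EAE replicates 6, 14 and 21 had Cd3e at 0.693, 0.826 and 0.691 CPM and Cd38 at 3.72, 9.19 and 7.78 CPM. Jchain is 1 of 7 B and plasma cell markers, of which 3 were tested. In control EAE against healthy 1 of these 3 rose and 2 fell, where 62.4% of all genes were called. Cd3e and Jchain were chosen after their values were seen, and the part of such cells in the Cd38 level was not tested. In bulk RNA, fewer cells of a type and less RNA per cell cannot be told apart.

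The neighbouring Bst1, which encodes the GPI-anchored relative of CD38 (ENSMUSG00000029082, chromosome 5, 43818885 to 43843986, forward strand), ends 24566 bases before Cd38 starts. It was near the limit of detection in healthy libraries, with 0 to 22 counts there against 266 to 1196 counts in control EAE. The levels (lowest, median and highest) were 0.399, 7.0 and 13.8 CPM in metformin EAE, 6.04, 8.92 and 21.5 CPM in control EAE, and 0, 0.118 and 0.379 CPM in healthy libraries. Both EAE groups lay above every healthy library, and they overlapped each other. The lowest metformin EAE value was replicate 22, and the other 5 ran from 2.87 to 13.8 CPM. The log2 change was 6.16 ± 0.77 in control EAE against healthy, a size that depends on few healthy counts. It was -0.69 ± 0.56 in metformin EAE against control EAE and -0.44 ± 0.42 without replicate 22. Against healthy, metformin EAE was at 5.47 ± 0.76, and at 5.72 ± 0.56 without replicate 22. Exons of Bst1 overlap those of Fbxl5 on the other strand over 98 bases. The kit keeps strand, and whether the counting used it is not given in the sources used here.

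The 2 neighbours therefore stood in different proportions in the 3 groups. The log2 ratio of Cd38 to Bst1 counts within a library (0.5 added to each count) does not depend on how libraries are scaled, though it does depend on the length of each gene. Its lowest, median and highest values were -1.03, -0.35 and 2.64 in metformin EAE, 0.88, 1.35 and 2.60 in control EAE, and 2.51, 3.73 and 8.01 in healthy libraries. Without replicate 22, at 2.64, metformin EAE ran from -1.03 to 0.53 and lay below control EAE without overlap. This ratio was chosen after the values were seen.

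**Figure D1:**
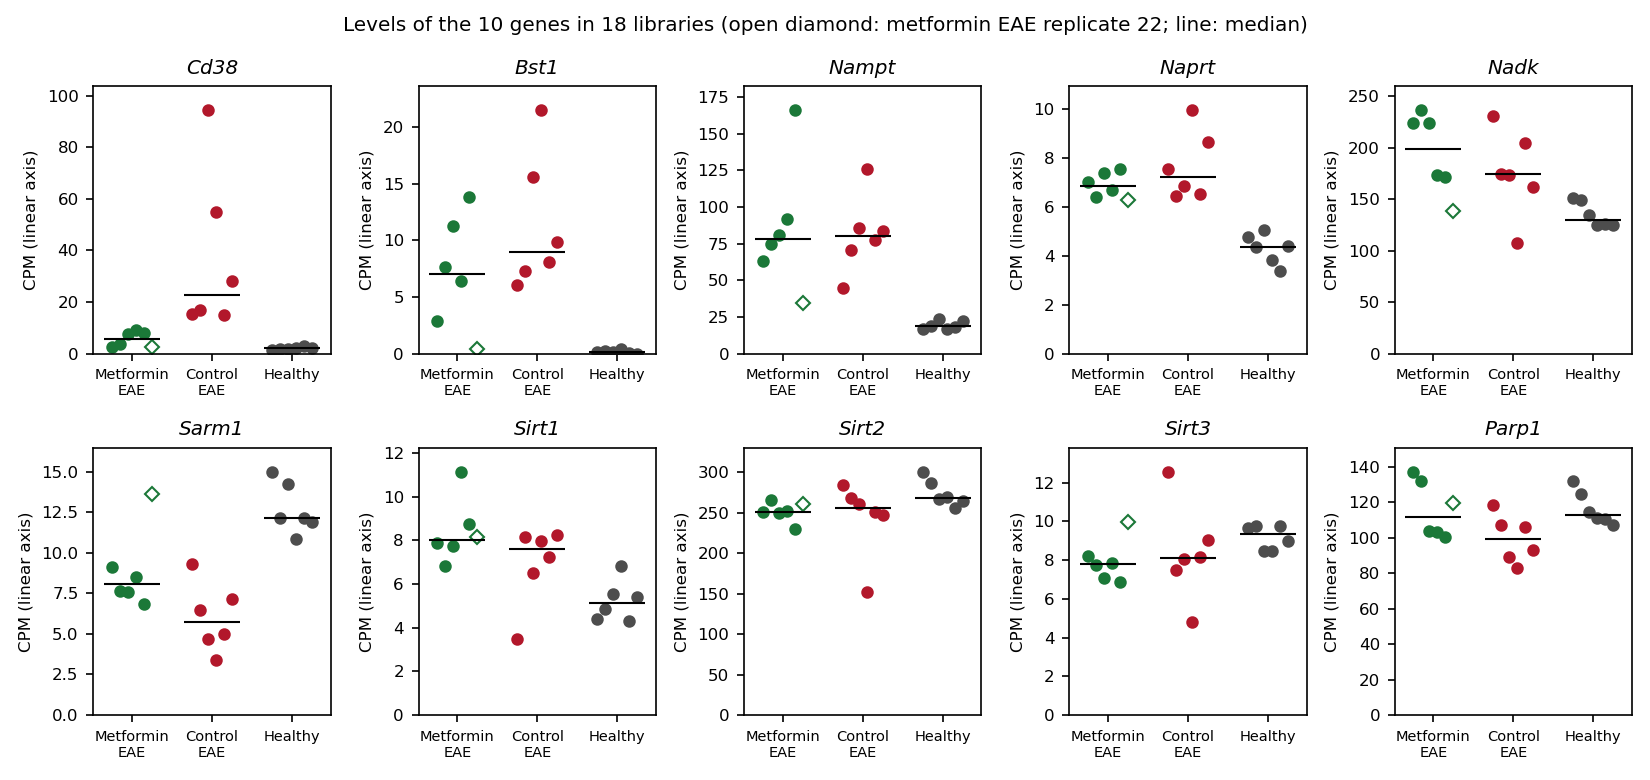
Level of each of the 10 genes in CPM (y axis, linear, from 0) in metformin EAE, control EAE and healthy libraries (x axis, 6 points each), with a line at the median and an open diamond for metformin EAE replicate 22. Cd38 reaches 94.3 CPM in control EAE and at most 9.19 CPM in metformin EAE, while Nampt has medians of 78.0 and 80.5 CPM in the 2 groups.

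Nampt encodes the rate-limiting enzyme of NAD salvage from nicotinamide (ENSMUSG00000020572, chromosome 12, 32819545 to 32853349, forward strand). Lowest, median and highest, its levels were 34.7, 78.0 and 166 CPM in metformin EAE, 44.7, 80.5 and 126 CPM in control EAE, and 17, 18.8 and 23.9 CPM in healthy libraries. Each EAE library, replicate 22 included, was above every healthy one, and the 2 EAE groups overlapped. The log2 change was 2.06 ± 0.29 in control EAE against healthy and 2.12 ± 0.29 in metformin EAE against healthy (2.29 ± 0.24 without replicate 22). Between metformin EAE and control EAE it was 0.07 ± 0.28, and 0.23 ± 0.24 without replicate 22.

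Nampt was thus above healthy without overlap in both EAE groups, and Cd38 in control EAE only. In metformin EAE, Cd38 overlapped healthy, though its median was higher (5.56 against 2.03 CPM). The ratio of the 2 genes compares them within each library. The log2 ratio of Nampt to Cd38 counts within a library ran from 3.32 to 4.55 (median 4.05) in metformin EAE, from -0.14 to 2.39 (median 1.55) in control EAE and from 2.69 to 3.67 (median 3.40) in healthy libraries. Control EAE lay below the other 2 groups without overlap, and metformin EAE overlapped healthy. In control EAE replicate 9, the library with the lowest ratio, Cd38 counts exceeded those of Nampt. This ratio too was chosen after the values were seen.

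**Figure D2:**
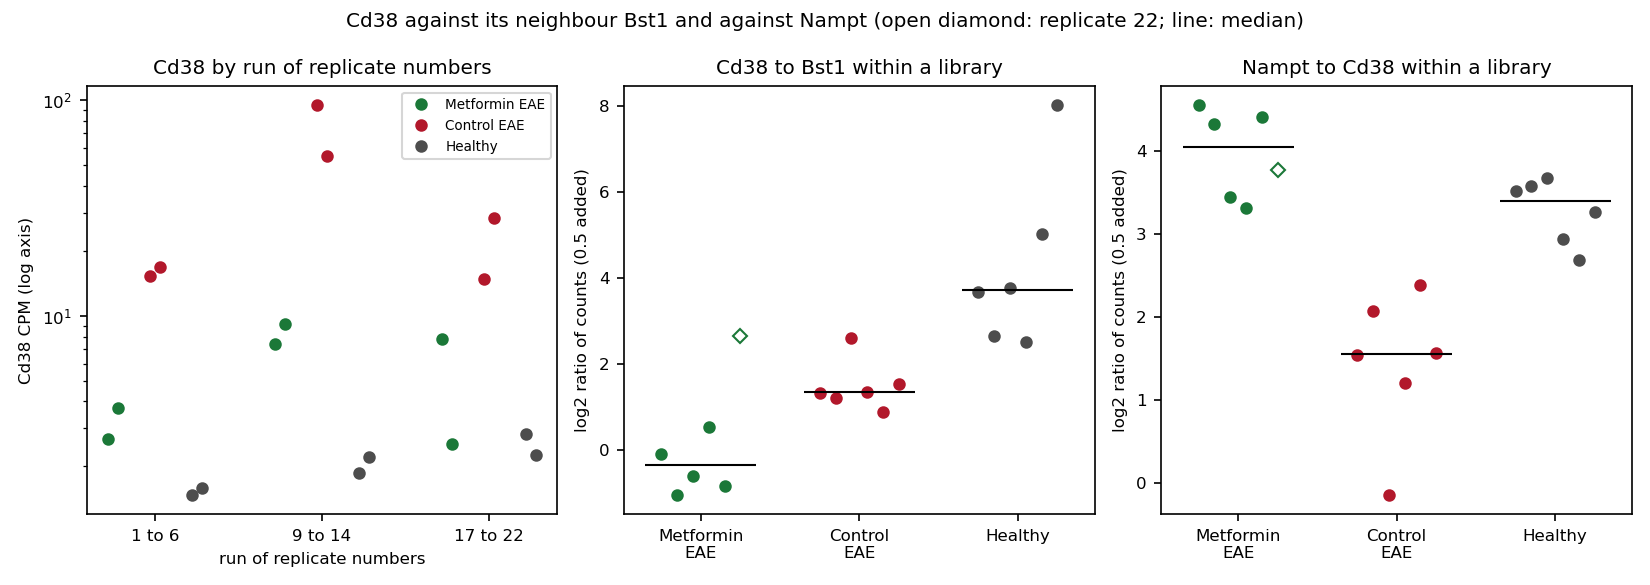
Left, Cd38 in CPM (log axis) for the 3 runs of replicate numbers, with 2 points per group; middle and right, log2 ratios of Cd38 to Bst1 counts and of Nampt to Cd38 counts in each library, with a line at the median and an open diamond for replicate 22. Cd38 in control EAE is above metformin EAE over all libraries, and so in every run. The Nampt to Cd38 ratio of control EAE, at most 2.39, is below that of metformin EAE, at least 3.32.

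Naprt, the first enzyme of the Preiss-Handler route from nicotinic acid (ENSMUSG00000022574, chromosome 15, 75890956 to 75894481, reverse strand), differed less. Its lowest, median and highest levels were 6.29, 6.84 and 7.55 CPM in metformin EAE, 6.46, 7.20 and 9.94 CPM in control EAE, and 3.37, 4.37 and 5.03 CPM in healthy libraries. Both EAE groups were above healthy without overlap, and they overlapped each other. The log2 changes were 0.84 ± 0.13 in control EAE against healthy, -0.16 ± 0.13 in metformin EAE against control EAE and 0.68 ± 0.13 in metformin EAE against healthy. Without replicate 22 the last 2 were -0.13 ± 0.13 and 0.71 ± 0.13. Scaled by library totals alone, Naprt was at 6.27 to 7.41 CPM in metformin EAE, 5.33 to 9.51 CPM in control EAE and 3.99 to 5.88 CPM in healthy libraries. On that scale control EAE overlapped healthy, and metformin EAE still lay above it. Exons of Naprt share 277 bases with those of Eef1d on the same strand, so its counts may include reads of Eef1d.

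Nadk, the cytosolic NAD kinase (ENSMUSG00000029063, chromosome 4, 155562378 to 155591001, forward strand), was abundant in all groups. The levels (lowest, median and highest) were 138, 199 and 236 CPM in metformin EAE, 108, 174 and 231 CPM in control EAE, and 125, 130.1 and 151 CPM in healthy libraries. The groups overlapped in every comparison with all libraries, and without replicate 22 metformin EAE (172 CPM and above) lay above healthy. The log2 change was 0.38 ± 0.15 in control EAE against healthy, and it turned to -0.055 when library totals alone set the scale. It was 0.15 ± 0.15 in metformin EAE against control EAE, and 0.23 ± 0.14 without replicate 22. Against healthy, metformin EAE was at 0.53 ± 0.15, and at 0.61 ± 0.14 without replicate 22.

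Sarm1, the intracellular NAD-cleaving enzyme (ENSMUSG00000050132, chromosome 11, 78472330 to 78497754, reverse strand), was the 1 gene of the 10 that lay lower in control EAE than in healthy libraries without overlap. Lowest, median and highest, its levels were 6.82, 8.09 and 13.6 CPM in metformin EAE, 3.39, 5.73 and 9.29 CPM in control EAE, and 10.8, 12.1 and 15 CPM in healthy libraries. Replicate 22 had the highest metformin EAE value, inside the healthy range, and the other 5 ran from 6.82 to 9.09 CPM, below every healthy library. The log2 change was -1.08 ± 0.20 in control EAE against healthy. It was 0.57 ± 0.20 in metformin EAE against control EAE and 0.41 ± 0.18 without replicate 22, and the 2 EAE groups overlapped with and without it. Against healthy, metformin EAE was at -0.51 ± 0.20, and at -0.68 ± 0.18 without replicate 22. SARM1 is known chiefly from neurons, and the 8 neuron markers moved alongside: their summed level was 208 to 274 CPM in 5 metformin EAE libraries and 495 CPM in replicate 22, 162 to 245 CPM in control EAE, and 362 to 499 CPM in healthy libraries. The 8 microglia markers stood in the same order. Their sum was 8371 to 13143 CPM in 5 metformin EAE libraries and 17968 CPM in replicate 22, 4764 to 7837 CPM in control EAE, and 18182 to 20518 CPM in healthy libraries. The part of neuronal or microglial RNA in the Sarm1 level was not tested.

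The sirtuins, NAD-dependent deacylases, did not separate in the same way as Cd38 or Nampt. Sirt1, a nuclear deacetylase (ENSMUSG00000020063, chromosome 10, 63319005 to 63381704, reverse strand), had 6.82, 8.02 and 11.1 CPM as lowest, median and highest in metformin EAE, 3.47, 7.61 and 8.27 CPM in control EAE, and 4.31, 5.12 and 6.84 CPM in healthy libraries. The groups overlapped in all 3 comparisons, for metformin EAE and healthy only at 6.82 and 6.84 CPM. The log2 changes were 0.41 ± 0.18 in control EAE against healthy, 0.28 ± 0.18 in metformin EAE against control EAE and 0.69 ± 0.18 in metformin EAE against healthy. Without replicate 22 the last 2 were 0.29 ± 0.19 and 0.70 ± 0.19. With library totals alone the change in control EAE against healthy was -0.0045. The gene is annotated with the antisense RNA Gm16145, whose exons overlap its own over 65 bases.

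Sirt2, a mainly cytosolic deacetylase that is abundant in oligodendrocytes (ENSMUSG00000015149, chromosome 7, 28766735 to 28788661, forward strand), had the highest CPM of the 10. Its lowest, median and highest levels were 230.0, 251 and 265 CPM in metformin EAE, 152, 256 and 284 CPM in control EAE, and 256, 268 and 300.4 CPM in healthy libraries. All groups overlapped, and the log2 changes were -0.17 ± 0.11 in control EAE against healthy, 0.05 ± 0.11 in metformin EAE against control EAE and -0.12 ± 0.11 in metformin EAE against healthy. Without replicate 22 the last 2 were 0.04 ± 0.11 and -0.13 ± 0.12. With library totals alone, control EAE (145 to 227 CPM) lay below healthy (302 to 326 CPM) without overlap, at a log2 change of -0.60. Summed levels of 8 oligodendrocyte markers were 2626 to 2867 CPM in 5 metformin EAE libraries and 3187 CPM in replicate 22, 2704 to 3425 CPM in control EAE, and 3383 to 3848 CPM in healthy libraries. Their part in the Sirt2 level was not tested.

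Sirt3, the main mitochondrial deacetylase (ENSMUSG00000025486, chromosome 7, 140863666 to 140882309, reverse strand), had 6.86, 7.80 and 9.99 CPM as lowest, median and highest in metformin EAE, 4.79, 8.09 and 12.6 CPM in control EAE, and 8.47, 9.33 and 9.77 CPM in healthy libraries. The highest metformin EAE value was replicate 22, and the other 5, at most 8.23 CPM, lay below every healthy library. The log2 changes were -0.14 ± 0.16 in control EAE against healthy, -0.07 ± 0.16 in metformin EAE against control EAE and -0.21 ± 0.16 in metformin EAE against healthy. Without replicate 22 the last 2 were -0.14 ± 0.16 and -0.28 ± 0.16. The change in control EAE against healthy was -0.58 with library totals alone, and the change in metformin EAE against control EAE was then 0.19. Its exons overlap those of Ric8a over 418 bases and of Psmd13 over 342 bases on the other strand.

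Parp1, the nuclear sensor of DNA breaks that builds chains of ADP-ribose from NAD (ENSMUSG00000026496, chromosome 1, 180568924 to 180601254, forward strand), was at a similar level in all groups. The levels (lowest, median and highest) were 100.3, 112 and 137 CPM in metformin EAE, 83.0, 99.5 and 118 CPM in control EAE, and 107, 113 and 132 CPM in healthy libraries, all overlapping. The log2 changes were -0.23 ± 0.10 in control EAE against healthy, 0.22 ± 0.10 in metformin EAE against control EAE and -0.01 ± 0.10 in metformin EAE against healthy. Without replicate 22 the last 2 were 0.21 ± 0.11 and -0.02 ± 0.11. With library totals alone, control EAE (71.9 to 95.2 CPM) lay below healthy (126 to 142 CPM) without overlap, at a log2 change of -0.66, and the change in metformin EAE against control EAE was 0.46.

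Counted over the 10 genes, 4 were higher and 1 lower in control EAE than in healthy libraries without overlap, where 39.4% of all genes tested did not overlap (20.1% higher and 19.3% lower). In metformin EAE against control EAE, 1 was lower (Cd38) and the other 9 overlapped, where 10.3% of all genes did not overlap (4.9% higher and 5.44% lower). The same held without replicate 22, against 11.2% of all genes (5.39% higher and 5.78% lower). In metformin EAE against healthy, 3 were higher (Bst1, Nampt and Naprt) and 7 overlapped, against 12.9% of all genes (6.82% higher and 6.12% lower). Without replicate 22, 4 were higher and 2 lower than healthy, against 35.5% of all genes (18.9% higher and 16.6% lower). That library was set apart after the levels of these genes were seen, for lying near healthy. More separation from healthy without it follows in part from that choice. Nothing is read from these counts, since the genes were chosen with them known. The median log2 change of the 10 was 0.39 in control EAE against healthy, 0.06 in metformin EAE against control EAE and 0.61 in metformin EAE against healthy, and the median of all genes tested was between 0.01 and -0.003.

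**Figure D3:**
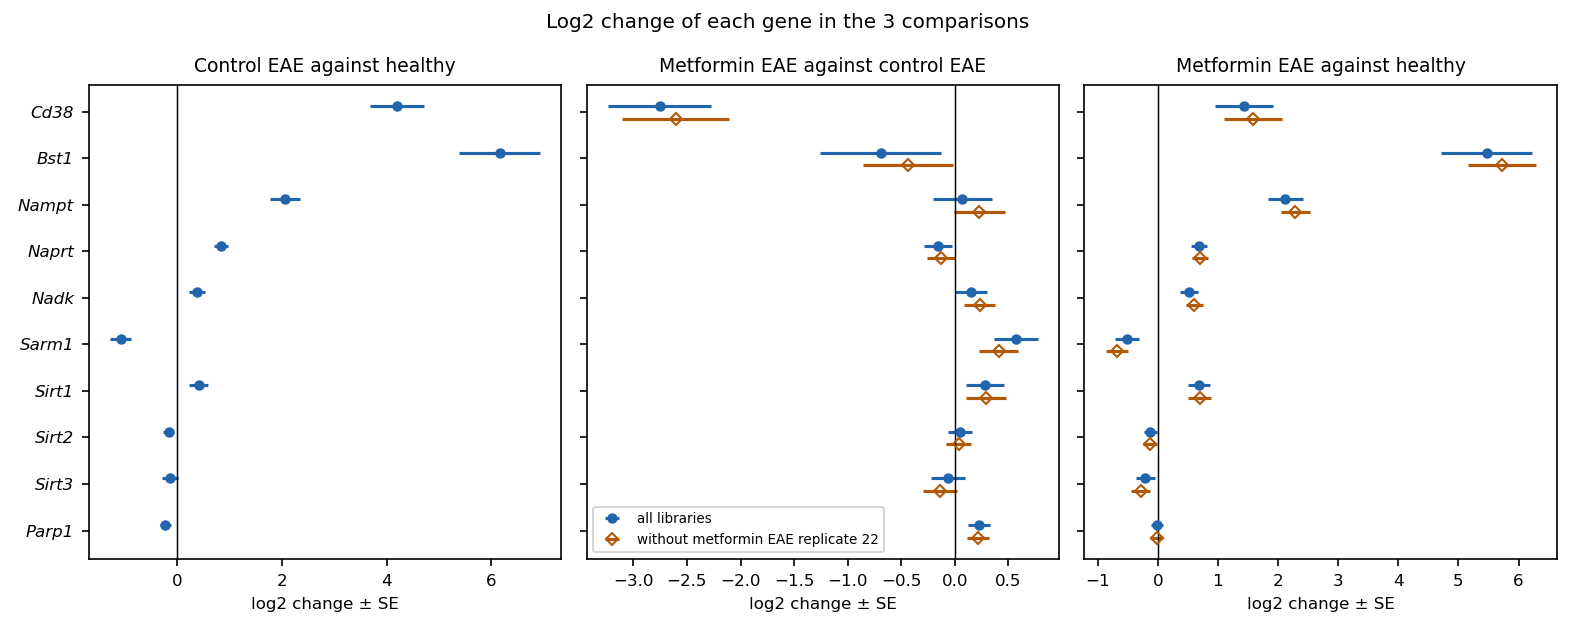
Log2 change (x axis) of each of the 10 genes (y axis) in the 3 comparisons, with bars of 1 SE, for all libraries and without metformin EAE replicate 22. Cd38 stands at 4.19 in control EAE against healthy and at -2.76 in metformin EAE against control EAE, and Nampt at 2.06 and 0.07.

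Between genes, levels were compared as CPM per kilobase of exon. Sirt2, Nadk and Parp1 were the 3 highest in every group, with medians of 49.9, 53.1 and 21.1 in metformin EAE, 50.8, 46.5 and 18.8 in control EAE, and 53.3, 34.7 and 21.3 in healthy libraries. Sirt2 and Nadk overlapped in both EAE groups and not in healthy cord. Nampt was the fourth in every group, at 15.4 in metformin EAE, 15.9 in control EAE and 3.71 in healthy libraries, and overlapped Parp1 in both EAE groups. Cd38 was the fifth in control EAE, at 5.80, overlapping Nampt above and Naprt (3.07) below it. In metformin EAE it was the ninth, at 1.43, where Sirt1 (1.5), Sarm1 (1.44) and Sirt3 (1.31) had overlapping levels. It was also the ninth in healthy libraries, at 0.523, between Sirt1 (0.960) and Bst1 (0.0355) and overlapping neither.

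The 8 genes most like Cd38 over the 18 libraries, by the root mean square difference of centred log2 CPM, were Msrb1 (0.72), Serpina3n (0.77), Ctla2a (0.78), Wnt4 (0.78), Ctsk (0.81), Gadd45a (0.81), Bicc1 (0.82) and Vtn (0.82). The median over the 10194 genes compared was 1.76. Of the other 9 genes of the set, Nampt was nearest at 1.21, and the neighbour Bst1 was at 2.0. The measure also counts a larger change in the same direction as a difference. In control EAE against healthy Bst1 was at 6.16, from few healthy counts, and Cd38 at 4.19. Ctla2a, whose difference between metformin EAE and control EAE was the largest of the 8 and which was picked for it, was at 0.689, 3.89 and 7.37 CPM in metformin EAE, 10.3, 15.8 and 28.5 CPM in control EAE, and 0.672, 0.742 and 1.44 CPM in healthy libraries (lowest, median and highest).

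RefSeq (GRCm38.p6) gave a promoter for 8 of the 10 genes, and the 250 bases before each start were searched on both strands for 6 motifs. The motifs were an NF-kB type (GGG, any 5 bases, CC, in 45.8% of all 32851 promoters), an interferon-stimulated response element type (GAAA, any 2 bases, GAAA, 2.98%), a GAS type (TTCNNNGAA, 7.02%), an AP-1 type (TGANTCA, 6.75%), a PU.1 core (GAGGAA, 23.3%) and the E-box CACGTG (6.02%). None was found in the windows of Cd38 and Nampt, which says only that these letters are not there. The NF-kB type was found in the windows of Sarm1, Sirt1, Sirt2, Sirt3 and Parp1, and the PU.1 core in those of Nadk. The E-box was found in the windows of Sirt1 (2 matches), Parp1 and Nadk. Windows differed in CpG count, with 1 in Cd38, 27 in Nampt, 39 in Sirt1 and 13 in Sarm1, and a median of 6 over all promoters. The Cd38 window lies inside the first exon of a GENCODE transcript and is not printed. That of Nampt lies just before the first exon of 1 GENCODE transcript and within an intron of a longer one that starts further upstream. Of the promoters, Nampt is shown as the salvage gene that was high in both EAE groups and Sarm1 as the gene that was low, with the NF-kB type matches of Sarm1 (1 on each strand, overlapping) in capitals.
Nampt, chr12:32820085-32820334, forward strand: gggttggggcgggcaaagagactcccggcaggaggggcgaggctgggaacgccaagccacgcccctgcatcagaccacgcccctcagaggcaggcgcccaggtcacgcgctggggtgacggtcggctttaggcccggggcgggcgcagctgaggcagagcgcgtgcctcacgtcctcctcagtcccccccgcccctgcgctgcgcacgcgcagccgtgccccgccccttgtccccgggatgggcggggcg
Sarm1, chr11:78497755-78498004, reverse strand: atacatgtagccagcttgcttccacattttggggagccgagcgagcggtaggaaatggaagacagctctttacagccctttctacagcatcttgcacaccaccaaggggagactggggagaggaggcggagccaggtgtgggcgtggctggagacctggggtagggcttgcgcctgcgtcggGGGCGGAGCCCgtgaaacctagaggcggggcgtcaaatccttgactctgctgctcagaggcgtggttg

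The other genes of NAD metabolism were followed in 10 lists of 89 genes, 88 of them in the table and 73 tested (edgeR quasi-likelihood F test over all 16740 genes, Benjamini-Hochberg adjusted p under 0.05). In control EAE against healthy, 25 rose, 17 fell and 31 did not pass, so 57.5% were called against 62.4% of all genes. In metformin EAE against control EAE, 6 rose, 8 fell and 59 did not pass, 19.2% against 24.6% of all genes. In metformin EAE against healthy, 22 rose, 8 fell and 43 did not pass, 41.1% against 36.6% of all genes. Without replicate 22 the counts were 5 up and 8 down against control EAE, where 18.3% of all genes were called, and 25 up and 13 down against healthy, where 46.3% were. With all libraries each share lay near that of all genes. Nadk2 and Oard1 were listed at 0 in every library.

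Some calls depended on the scale or on a covariate. With library totals alone, 6 of the 8 falls in metformin EAE against control EAE were no longer called: Nmnat3, Naxd, Mdh2, Got1, Adprs (-0.26, adjusted p = 0.0528) and Enpp1 (-0.28, adjusted p = 0.105). Naxe (-0.22, adjusted p = 0.0378) and Idh1 (-0.27, adjusted p = 0.0488) still were. With a score of neuron and oligodendrocyte markers as a covariate, Nmnat3, Naxe, Nudt13, Mdh2, Slc25a13, Sirt5, Parp11, Parp12, Art3 and Ryr3 were not called in control EAE against healthy (adjusted p 0.0779 to 0.35). The same held for Nmnat3, Got1, Parp14, Enpp1 and Ryr3 in metformin EAE against control EAE (0.0639 to 0.205). Kyat3 was called under neither setting in metformin EAE against healthy. The marker score was at least 5.74 in every healthy library and at most 5.52 in every control EAE library. As a covariate it therefore takes up much of the difference between these 2 groups. Over all genes, 3000 rose and 2155 fell in that comparison with the score, against 10452 called without it. A call lost there cannot be assigned to neuron or oligodendrocyte RNA, whose part was not tested.

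The list for NAD synthesis from tryptophan, side branches included, went both ways in control EAE against healthy. Of 8 tested genes 2 were up and 3 down, with a median log2 change of -0.37. Kynu and Kyat3, the latter on a side branch, were up, and Afmid, Haao and Qprt were down. Ido1 and Kmo were among the 12 listed and did not pass the filter on low counts. Kynu, which makes 3-hydroxyanthranilate, rose by 2.49 ± 0.28 (adjusted p = 6.32e-07), with 4.86, 7.0 and 10.1 CPM in control EAE and 0.762, 1.32 and 1.49 CPM in healthy libraries (lowest, median and highest). Qprt, which makes the NAD precursor nicotinic acid mononucleotide from quinolinate, fell (-2.28 ± 0.26, adjusted p = 6.63e-07), with 2.94, 3.03 and 3.79 CPM in control EAE and 14, 15.1 and 16.8 CPM in healthy libraries. Haao, which makes the precursor of quinolinate, fell as well (-0.83 ± 0.13). The genes on either side of quinolinate thus lay lower while Kynu lay higher, and in each of the 3 the groups did not overlap. Set against control EAE, metformin EAE differed in 2 of the 8 genes: Haao (0.59 ± 0.13, adjusted p = 0.00434) and Afmid (0.52 ± 0.15, adjusted p = 0.0159) rose, and none fell (0.59 and 0.47 without replicate 22). Against healthy, metformin EAE differed in 3: Kynu (2.11 ± 0.28) and Kyat3 (0.51 ± 0.16) rose and Qprt (-1.70 ± 0.25) fell. These 3 were at 2.28, 0.58 and -1.98 without replicate 22.

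Among 8 tested genes of salvage, the Preiss-Handler route and NAD repair, 3 rose and 1 fell in control EAE against healthy (median log2 change 0.32). Nmnat3, an enzyme of the last step of NAD synthesis, rose by 1.39 ± 0.19 (11.5 ± 3.01 CPM in control EAE and 4.38 ± 0.78 CPM in healthy libraries, SD, n = 6 each). Nmnat2, the isoform known for keeping axons intact, fell (-0.97 ± 0.12, 11.1 ± 1.13 CPM in control EAE and 21.7 ± 2.26 CPM in healthy libraries). All 8 neuron markers and 7 of 8 microglia markers fell in control EAE against healthy too, where 62.4% of all genes were called in either direction. The sums of both lists are given beside Sarm1, and their part in the Nmnat2 level was not tested. The NADHX epimerase Naxe rose by 0.44 ± 0.08, a value that was 0.01 with library totals alone. Between metformin EAE and control EAE 0 rose and 3 fell: Naxe (-0.45 ± 0.08, adjusted p = 0.00144), Nmnat3 (-0.58 ± 0.19, adjusted p = 0.033) and the dehydratase Naxd (-0.24 ± 0.08, adjusted p = 0.0408). Without replicate 22 they were at -0.43, -0.48 and -0.27. Nmnat3 was no longer called without metformin EAE replicate 22 (adjusted p = 0.0732) or 5 (0.0754), or control EAE replicate 1 (0.0779) or 9 (0.081). Naxd was not called without metformin EAE replicate 5, 6, 13, 14 or 21 or control EAE replicate 1, 9 or 10 (adjusted p 0.0612 to 0.0766).

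Of 11 genes of NADP synthesis, its removal and NADPH supply, 2 rose and 1 fell in control EAE against healthy (median 0.07). The cytosolic and the mitochondrial isocitrate dehydrogenase went opposite ways. Idh1 rose by 1.22 ± 0.13 (adjusted p = 3.59e-07, 86.2 ± 7.27 CPM in control EAE and 37.1 ± 2.93 CPM in healthy libraries), and Idh2 fell (-0.84 ± 0.11, 36.9 ± 3.32 CPM in control EAE and 65.8 ± 2.61 CPM in healthy libraries). Nudt13 rose by 0.47 ± 0.12 with overlapping groups, and was at 0.04 with library totals alone (adjusted p = 0.799). Between metformin EAE and control EAE 0 rose and 1 fell, which was Idh1 (-0.47 ± 0.13, adjusted p = 0.0121, and -0.36 without replicate 22). It had 62.1 ± 14.7 CPM in metformin EAE, SD, n = 6. Of 8 NADH shuttle genes, 4 rose and 2 fell in control EAE against healthy (median 0.35), among them the aspartate aminotransferase Got1 (1.06 ± 0.11), the aspartate-glutamate carrier Slc25a13 (1.19 ± 0.17) and Mdh2 (0.48 ± 0.08). Mdh2 was at 0.06 with library totals alone (adjusted p = 0.514). Got1 (-0.38 ± 0.11) and Mdh2 (-0.35 ± 0.08) were the 2 that fell in metformin EAE against control EAE, and 0 rose. Without replicate 22 they were at -0.28 and -0.32, and the glycerol-3-phosphate dehydrogenase Gpd1 was called as well (-0.35, adjusted p = 0.0278, against -0.17 and 0.402 with all libraries). Neither was called with library totals alone (Got1 -0.17, adjusted p = 0.138, and Mdh2 -0.13, adjusted p = 0.195).

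**Figure D4:**
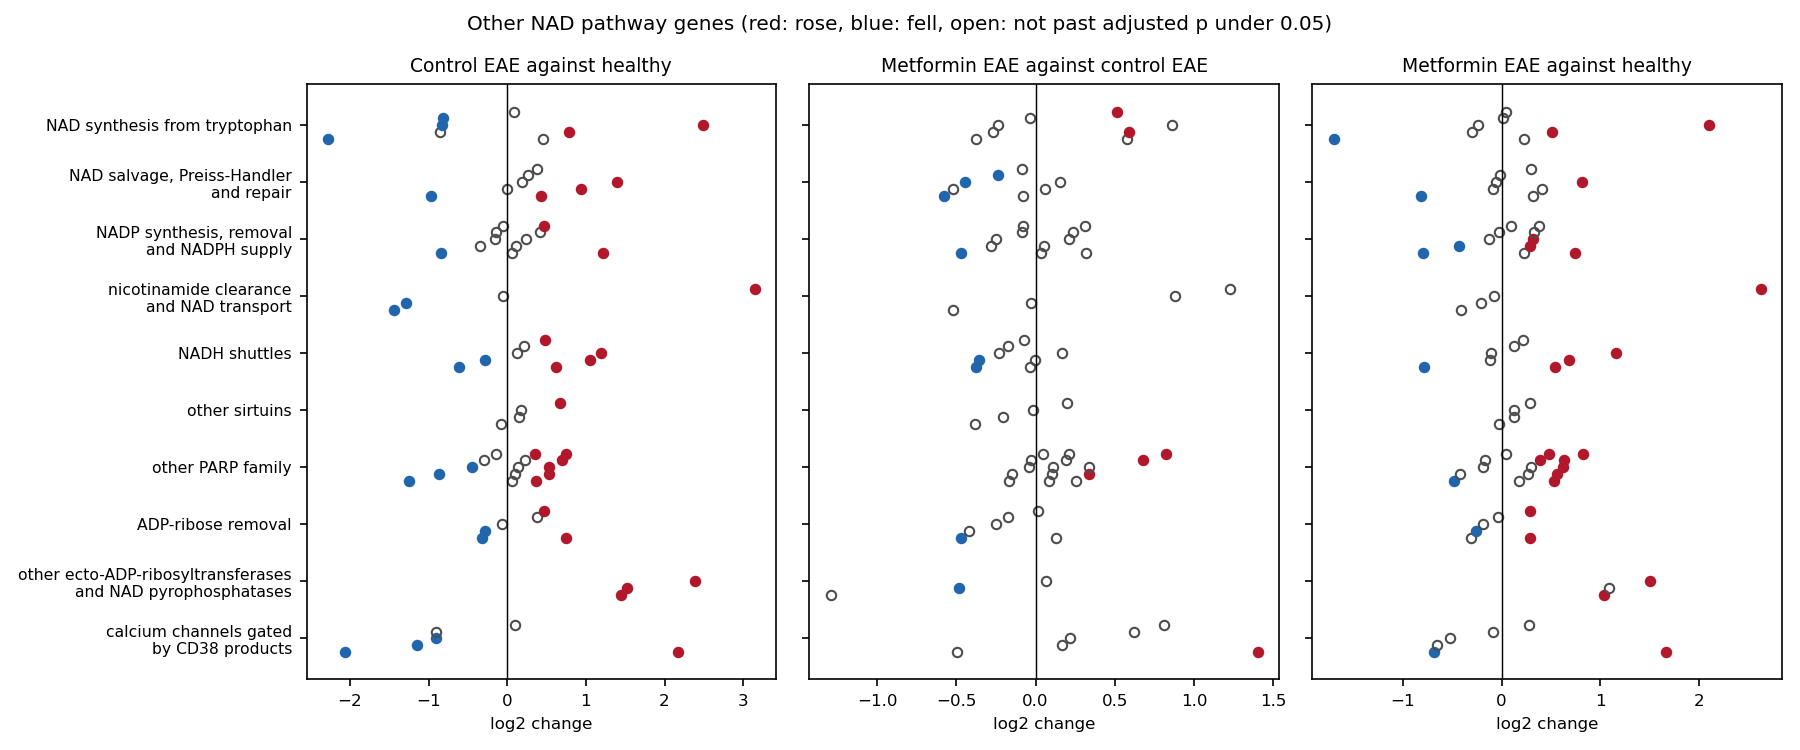
Log2 change (x axis) of 73 other genes of NAD metabolism, 1 point each, in 10 lists (y axis) and 3 comparisons, with filled points past adjusted p under 0.05. In control EAE against healthy 25 points are filled to the right and 17 to the left, and in metformin EAE against control EAE 6 and 8.

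Of 15 other PARP genes, 6 rose and 3 fell in control EAE against healthy (median 0.14). Parp12 (0.74 ± 0.12) and Parp11 (0.70 ± 0.12), which attach single ADP-ribose units, rose, and Parp8 fell (-1.25 ± 0.18). Between metformin EAE and control EAE 3 rose and 0 fell. These were Parp8 (0.82 ± 0.18, adjusted p = 0.00412), the tankyrase Tnks (0.68 ± 0.15, adjusted p = 0.00373) and Parp14 (0.33 ± 0.10, adjusted p = 0.0188). Without replicate 22 they were at 0.70, 0.61 and 0.29, all still called. In metformin EAE against healthy 7 rose and 1 fell, with the antiviral Zc3hav1 at 0.57 ± 0.08, Parp10 at 0.63 ± 0.10 and Parp12 at 0.82 ± 0.12. Without replicate 22 there were 9 up and 2 down, with these 3 at 0.58, 0.65 and 0.88. Of 4 other sirtuins, Sirt5 rose in control EAE against healthy (0.67 ± 0.17, adjusted p = 0.00197), and the other 3 did not pass. Sirt5 was at 0.24 with library totals alone (adjusted p = 0.225). By the same edgeR test 0 of the 4 passed in either metformin comparison. Before adjustment over all genes, edgeR's p was under 0.05 for 2 of them in metformin EAE against control EAE and for 0 in metformin EAE against healthy. The 2 were Sirt5 (-0.38 ± 0.17, edgeR adjusted p = 0.104) and Sirt7 (-0.20 ± 0.09, edgeR adjusted p = 0.113).

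Of 6 genes that remove ADP-ribose, 2 rose and 2 fell in control EAE against healthy (median 0.16). Adprs, an ADP-ribose hydrolase for serine listed as Adprhl2 in the annotation, rose by 0.75 ± 0.10, and fell in metformin EAE against control EAE (-0.47 ± 0.10, adjusted p = 0.00307, and -0.41 without replicate 22). All 3 tested ecto-ADP-ribosyltransferases and NAD pyrophosphatases rose in control EAE against healthy (median 1.53), though Art3 (1.44 ± 0.46, adjusted p = 0.0111) was not called without control EAE replicate 10 (adjusted p = 0.0514). The groups overlapped in Art3 and in Art4 (2.38 ± 0.89). Art4, chosen after its values were seen, had a mean of 0.213 CPM over the 18 libraries. Enpp1, a surface enzyme that can split NAD, rose by 1.53 ± 0.16 (37.4 ± 5.41 CPM in control EAE and 13 ± 1.17 CPM in healthy libraries). It fell in metformin EAE against control EAE (-0.48 ± 0.16, adjusted p = 0.0309, and -0.35 without replicate 22), with 26.8 ± 7.38 CPM in metformin EAE, and was not called without metformin EAE replicate 5 (adjusted p = 0.0711) or control EAE replicate 2 (0.0566), 9 (0.0623) or 17 (0.057). Of 4 genes of nicotinamide clearance and NAD transport, 1 rose and 2 fell in control EAE against healthy (median -0.67), each at a mean under 1 CPM over the 18 libraries. These, chosen after their values were seen, were Nnmt (3.15), Aox1 (-1.29) and Slc12a8 (-1.44).

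CD38 products gate calcium channels, and of 6 such genes 1 rose and 3 fell in control EAE against healthy (median -0.91). The 2 endolysosomal 2-pore channels, which respond to the CD38 product NAADP, went opposite ways. Tpcn2 rose by 2.17 ± 0.20 (adjusted p = 1.02e-07), with 13.4, 14.7 and 16.6 CPM in control EAE and 2.27, 2.94 and 4.40 CPM in healthy libraries. Tpcn1 fell (-0.91 ± 0.17, adjusted p = 0.000139), with 59.9, 122 and 151 CPM in control EAE and 202, 211 and 260 CPM in healthy libraries. Ryr3, a ryanodine receptor at low counts, fell as well (-2.06 ± 0.41). It was the 1 gene of the 6 that passed in metformin EAE against control EAE (1.40 ± 0.41, adjusted p = 0.018), and it did not pass without replicate 22 (0.92, adjusted p = 0.0691). Neuron and microglia markers moved the same way as Ryr3, as given beside Sarm1, and their part was not tested.

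Markers of other cells moved with the groups. The 8 microglia markers summed to 8371 to 13143 CPM in 5 metformin EAE libraries and 17968 CPM in replicate 22, 4764 to 7837 CPM in control EAE, and 18182 to 20518 CPM in healthy libraries. Of these 8 genes 7 fell in control EAE against healthy and 0 rose, where 62.4% of all genes tested were called in either direction. Monocyte-derived cell markers (8 genes) summed to 176 to 545 CPM in 5 metformin EAE libraries and 14.6 CPM in replicate 22, 247 to 527 CPM in control EAE, and 4.59 to 12.5 CPM in healthy libraries. Fn1 made up most of this sum in control EAE, at a median of 356 CPM there and 3.79 CPM in healthy libraries. Ccr2 had medians of 0.668 and 1.31 CPM in these groups, which overlapped. Of 6 tested genes of this list, 4 rose in control EAE against healthy and 0 fell. Border macrophage markers (6 genes, Pf4 at 0 throughout) summed to 20.2 to 42.2 CPM in 5 metformin EAE libraries and 2.39 CPM in replicate 22, 49.5 to 85.5 CPM in control EAE, and 0.238 to 1.24 CPM in healthy libraries. Control EAE lay above metformin EAE without overlap in the border macrophage sum and below it without overlap in the microglia sum. The border macrophage sum was mostly Ms4a7 in control EAE, at 45.3 to 82.8 CPM, against 0.254 to 39.5 CPM in metformin EAE. Mrc1 had medians of 0.973 CPM in control EAE and 1.12 CPM in metformin EAE, and Cd163 and Lyve1 were at most 0.213 CPM in any library. With all libraries, 6 of 8 microglia markers rose in metformin EAE against control EAE. Of all genes, 24.6% were called there in either direction with all libraries and 18.3% without replicate 22. Of 3 tested border macrophage markers 0 passed there by edgeR or DESeq2, also before adjustment, and 1 passed without replicate 22, Ms4a7 (-0.91 ± 0.24, edgeR adjusted p = 0.0159, against -1.17 ± 0.56 and 0.137 with all libraries).

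T cell markers (7 genes) summed to 1.01 to 4.03 CPM in 5 metformin EAE libraries and 0.634 CPM in replicate 22, 1.63 to 6.37 CPM in control EAE, and 0 to 0.344 CPM in healthy libraries. B and plasma cell markers (7 genes) summed to 11.1 to 22.6 CPM in metformin EAE with and without replicate 22, 8.65 to 22.4 CPM in control EAE and 16.9 to 20.3 CPM in healthy libraries. Neutrophil markers (7 genes, Ly6g at 0 throughout) summed to 1.69 to 5.35 CPM in 5 metformin EAE libraries and 1.11 CPM in replicate 22, 3.42 to 8.72 CPM in control EAE, and 0.178 to 1.91 CPM in healthy libraries. The B and plasma cell sums of all 3 groups overlapped, and Cd79b made up most of them, at a median of 13 CPM in metformin EAE, 8.40 CPM in control EAE and 15.3 CPM in healthy libraries. Astrocyte markers (7 genes) summed to 456 to 591 CPM in 5 metformin EAE libraries and 679 CPM in replicate 22, 468 to 539 CPM in control EAE, and 550.0 to 604 CPM in healthy libraries. Endothelial markers (6 genes, Cldn5 at 0 throughout) summed to 67.4 to 113 CPM in 5 metformin EAE libraries and 30.4 CPM in replicate 22, 62.5 to 147 CPM in control EAE, and 38.4 to 51.8 CPM in healthy libraries. Of 5 tested, 2 rose and 1 fell in control EAE against healthy, where 62.4% of all genes were called. Flt1 had medians of 81.2 CPM in control EAE and 7.07 CPM in healthy libraries, and Pecam1 had 1.83 and 24.1 CPM. The part of these cells in the levels of Cd38, Bst1, Nampt and Naprt was not tested.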

How the data were processed

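The authors deposited 1 table of counts per Ensembl gene, whole numbers for 18 libraries, per the file headers. Per the submitters' processing notes, bcl2fastq 2.17, FastQC and Trimmomatic were used with mm10, and per the labels' protocols mRNA was enriched and the KAPA Stranded RNA-Seq kit used for libraries. Which aligner, counting tool and annotation served is not given in the sources used here. Symbols, positions and exon lengths came from GENCODE M21 (GRCm38), which matched 37693 of 39017 genes. Adprs and Art2a were matched by RefSeq synonyms, and Pnp was not analysed here.

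A filter on low counts (filterByExpr, minimum 10 in a library and 15 in total) left 16740 genes, which were fitted with edgeR 4.0.16 (R 4.3.3) by TMM scaling and the robust quasi-likelihood F test, with 3 group means over all 18 libraries. Standard errors were obtained as the absolute log2 change over the square root of F. The fit was tested on simulated data. No 2 replicates agreed within sampling noise (lowest chi-square per degree of freedom 14.8). The labels name no molecular identifiers. The genes, lists and tests were chosen with earlier results of these data known. Genes named from the lists were, per comparison and list, the up to 3 with the smallest p among those called at a mean of at least 1 CPM. The 8 genes like Cd38 had a mean of at least 5 CPM, and log2 CPM used a prior count of 1. No set test was run. Alternatives were library totals alone, DESeq2 size factors, the DESeq2 1.42.0 Wald test, 2 other filters, only the 2 groups compared, the runs of replicate numbers or the neuron and oligodendrocyte marker score as a covariate, and leaving out each library. Python 3.11.15 with pandas 2.3.3, numpy 2.4.6 and matplotlib 3.10.9 made tables and figures.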

Additional observations from a re-analysis of the deposited data

Results flagged for a closer look

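In groups of 6 libraries, a library was marked where its gap to the nearest of the others took over 0.625 of the group's range in CPM. Of 129 groups of the 43 genes named, 16 had such a library, and chance marks about 1 in 20 groups. Metformin EAE replicate 22 was the library in 6 of the 16. It was high in Sarm1 (13.63 CPM, the next at 9.09), Gpd1 (43.66), Naxd (30.34) and Ryr3 (3.371), and low in Slc25a13 (4.476) and Adprs (29.9). Among the 10 genes the other marks were Sirt1 in control EAE replicate 1 (3.475 CPM, the next at 6.49) and Sirt2 in control EAE replicate 10 (151.6 CPM, the next at 246.6). Art3 was at 8.043 CPM in metformin EAE replicate 21. In control EAE, Qprt (3.793) and Zc3hav1 (92.82) were marked in replicate 1, and Idh1 (100.1), Sirt5 (5.342) and Afmid (8.2) in replicate 9. In healthy replicate 20, Kynu (0.7621) and Adprm (9.304) were marked as low.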

How the results depend on the processing

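No paired analysis was possible because the groups share no replicate number. With the 3 runs of numbers as a covariate, 42 list genes were called in control EAE against healthy, 16 in metformin EAE against control EAE and 30 in metformin EAE against healthy, no named list gene lost its call, and Cd38 was at 3.89, -2.59 and 1.31. With library totals alone the median of all genes shifted by -0.42, 0.22 and -0.20 in the comparisons of control EAE with healthy (the first), of metformin EAE with control EAE (the second) and of metformin EAE with healthy (the third). The other genes of NAD metabolism then split into 14 up and 32 down, 22 up and 2 down (24 in all), and 14 up and 16 down, against 25 and 17, 6 and 8, and 22 and 8 with TMM. Directions of genes with small changes thus depend on the scale, and over all genes called 23.1%, 88.4% and 28.7% were higher. With the score of neuron and oligodendrocyte markers as a covariate the first comparison had 13 up and 11 down (24 in all) and the third 10 up (16 in all). Since this score separates control EAE from healthy libraries completely, lost calls or turned signs in the first comparison cannot be assigned to those cells. With only the 2 groups compared, 4 fell in metformin EAE against control EAE. Leaving out 1 library gave 36 to 43 calls (23 to 28 up, 13 to 17 down), 11 to 18 (5 to 9 up, 5 to 9 down, with 5 down without metformin EAE replicate 5) and 26 to 39 (19 to 26 up, 7 to 13 down, with 13 down without replicate 22). Of 1534 values under an alternative, for the called list genes named by smallest p, 67 were no longer called and 0 changed sign. Signs of uncalled list genes were not followed. Of 780 values of the 10 genes, 14 moved by over 1 SD, and Nadk turned in control EAE against healthy, to -0.055 with library totals alone and to -0.38 with the marker covariate. Library totals alone also turned Sirt1 there (-0.0045) and, in metformin EAE against control EAE, Naprt (0.05) and Sirt3 (0.19). Leaving out 1 library turned the sign of 4 values smaller than their SE, those of Nampt, Sirt2 and Sirt3 in metformin EAE against control EAE and of Parp1 in metformin EAE against healthy. The cause was not tested. Cd38 stayed between 3.67 and 4.52 in control EAE against healthy and between -2.96 and -2.23 in metformin EAE against control EAE over the 26 alternatives.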
